A study of Mus musculus with 4 samples.

Results

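The 40 genes described here encode the extracellular matrix and a few proteins typical of fibroblasts: fibrillar and other collagens, basement membrane components, glycoproteins and microfibril proteins, leucine-rich proteoglycans and fibroblast surface or secreted proteins, and enzymes and inhibitors of matrix remodelling. They were taken by name from 21827 protein-coding genes of the mouse annotation, and all 40 were found there. Accessibility was read at their promoters, as a peak within 1 kb of a transcription start site (TSS), and in their surroundings, as peaks within 50 kb. The 4 peak lists merged into 80380 accessible regions, of which 270 lay within 50 kb of a member. Col4a1 and Col4a2 are transcribed in opposite directions from a shared promoter, so that 6 of the 270 regions and 1 promoter peak counted for both.

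The data were ATAC-seq peak lists, in which the transposase Tn5 marks open chromatin, from embryoid bodies collected at day 4. WT bodies (2 libraries) came from E14Tg2A mouse embryonic stem cells, and CTCF-K20R bodies (2 libraries) from the same line in which CRISPR/Cas9 had replaced lysine 20 of the chromatin-organising protein CTCF by arginine, in colonies picked after drug selection. Whether the 2 K20R libraries came from 1 clone was not stated in the sources used here. Both genotypes had been kept on mitomycin C-treated mouse embryo fibroblast feeders, which express many matrix genes themselves, and were then aggregated in hanging drops in serum medium without LIF. The comparison asked whether the mutation altered chromatin accessibility during early differentiation. No library was treated otherwise.

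The extracellular matrix is secreted as soluble precursors and assembled outside the cell. Fibrillar collagens form fibres, type IV collagen and laminins form the sheet of the basement membrane held together by nidogens and perlecan, and fibronectin and fibrillins form fibrils on which other proteins are deposited. In embryoid bodies the first matrix is a basement membrane laid down by the outer endoderm layer, fibronectin is laid down where mesoderm forms and migrates, and fibrillar collagen is typical of mesenchyme and fibroblasts.

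The sequences of some regions named below are given first, as a selection. Each is 200 bases of mm10, placed on the strand of the named gene and taken at the strongest summit of the region. Capitals mark a match on either strand to the GATA motif AGATAA, to the GC box GGGCGG, to the TATA box spelled TATAAA or to the CCAAT box. The Tnc promoter (chr4:64047083-64047282, minus strand) had the largest difference between the genotypes among the members with a promoter peak in every library. The region upstream of Fbn1 (chr2:125516685-125516884, minus strand) and that upstream of Col1a2 (chr6:4465277-4465476, plus strand) had peaks in both WT libraries and in neither K20R library, and the region in a Col4a1 intron, shown on the Col4a2 strand (chr8:11279554-11279753, plus strand), the reverse. The pair upstream of Col18a1 (lower in K20R at chr10:77193673-77193872, higher in K20R at chr10:77191215-77191414, minus strand) had peaks in all 4 libraries. Regions with peaks in WT only in a Lama1 intron and near Thy1, stronger than that of Col1a2, are not shown and held no GATA match. Nor did a region upstream of Col1a1, lower in K20R and not shown. Of the 37 regions near members with peaks in both WT libraries and neither K20R library, 10.8% held the GATA motif. Over the series 14.5% of such regions held it.
Tnc promoter: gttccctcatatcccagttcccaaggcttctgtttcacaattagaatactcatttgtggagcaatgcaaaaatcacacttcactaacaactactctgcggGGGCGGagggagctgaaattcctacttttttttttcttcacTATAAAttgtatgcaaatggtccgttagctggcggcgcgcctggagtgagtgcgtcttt
Fbn1 upstream, WT only: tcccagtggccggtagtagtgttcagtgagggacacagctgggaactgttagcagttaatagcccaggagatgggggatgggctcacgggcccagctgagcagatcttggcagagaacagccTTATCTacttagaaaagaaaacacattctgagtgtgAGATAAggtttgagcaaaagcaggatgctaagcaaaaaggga
Col1a2 upstream, WT only: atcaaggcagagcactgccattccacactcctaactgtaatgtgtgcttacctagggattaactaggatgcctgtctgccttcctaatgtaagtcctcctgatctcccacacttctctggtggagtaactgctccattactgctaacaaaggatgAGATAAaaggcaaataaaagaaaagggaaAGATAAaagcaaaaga
Col4a1 intron, K20R only: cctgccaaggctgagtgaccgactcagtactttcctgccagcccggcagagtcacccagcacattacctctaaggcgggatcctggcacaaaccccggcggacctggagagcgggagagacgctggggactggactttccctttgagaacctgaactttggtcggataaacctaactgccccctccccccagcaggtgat
Col18a1 upstream, lower in K20R: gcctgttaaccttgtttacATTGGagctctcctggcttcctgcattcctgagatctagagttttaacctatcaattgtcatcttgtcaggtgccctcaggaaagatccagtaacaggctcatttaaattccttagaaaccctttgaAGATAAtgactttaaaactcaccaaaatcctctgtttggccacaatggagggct
Col18a1 upstream, higher in K20R: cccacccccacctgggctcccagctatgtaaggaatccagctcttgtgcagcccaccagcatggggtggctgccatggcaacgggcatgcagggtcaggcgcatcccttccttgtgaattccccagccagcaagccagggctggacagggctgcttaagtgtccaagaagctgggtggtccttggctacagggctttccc

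The lists held 59783 and 66703 peaks in WT and 51823 and 55832 in K20R, and depth in reads was not known from them. Every peak was therefore ranked within its own list by the −log10 p of its summit, and the rank was expressed as a percentile, with 100 for the strongest peak. The peak numbers had gaps in all 4 lists, which held 50.5% to 60.8% of their numbers, so that a place without a deposited peak could still have had a called one. A member was called lower or higher when both K20R percentiles lay below or above both WT percentiles. With 2 libraries against 2 the exact two-sided permutation test cannot go below p = 0.333, so no single difference passed a threshold and each count is read beside the share of all genes or regions called by the same rule. In bulk embryoid bodies, fewer cells of a type and less accessibility per cell cannot be told apart.

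Most matrix genes had an open promoter in both genotypes. Of the 40 members, 32 (80.0%) had a promoter peak in all 4 libraries, against 66.3% of all protein-coding genes. In single libraries 34 and 34 members had a promoter peak in WT, and 32 and 33 in K20R. The 6 members without a promoter peak in any library were Col3a1, encoding the fibrillar collagen III chain of soft tissues, Col6a3, a chain of the beaded-filament collagen VI, Nid1, the basement membrane linker nidogen-1, Lum, encoding the proteoglycan lumican, Postn, encoding periostin, and Loxl2, encoding a lysyl oxidase that crosslinks collagen. No region at all lay within 50 kb of Lum or Loxl2.

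Promoter strength ranged widely among the members. The mean percentile over the 4 libraries ran from 20.5 at Serpinf1 to 96.6 at Lamc1, with a median of 79.7, and the median over all genes with a promoter peak in every library was 86.1. The strongest were Lamc1, encoding the laminin γ1 chain, with 96.3 and 96.3 in WT against 98.4 and 95.3 for K20R, and Nid2, encoding nidogen-2, with 97.2 and 97.5 in WT against 93.4 and 96.0 for K20R. Lama1, Fn1 and Col5a1 followed. Fn1, encoding fibronectin, stood at 94.0 and 90.3 in WT against 91.8 and 88.2 for K20R, and the genotypes overlapped. Promoter sequence differed with presence: the ratio of observed to expected CpG over the 250 bases before and 50 bases after the start had a median of 0.548 in the 32 members with a peak in every library and 0.190 in the 6 with none. Over all genes these medians were 0.736 and 0.150.

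Equal numbers of members were lower and higher in K20R. Among the 32, 9 were lower (28.1%) and 9 were higher (28.1%), whereas 32.2% of 14480 genes were lower and 15.7% higher. The median difference, K20R minus WT, was -0.46 percentile points over the members and -0.82 over all genes. When promoters were ranked anew among these genes alone, which removes the unequal length of the lists, 8 members were lower (25.0%) and 15 higher (46.9%), against 23.0% and 23.8% of all genes. The 8 lower members were also lower in the first ranking, and all 9 that were higher in the first were higher in the second. Members were on average weaker than other promoters, so the shares were also taken over 3909 genes with a mean percentile between 74.6 and 86.4, the range that holds the middle 16 members. Of these genes 33.2% were lower and 13.9% higher, or 22.3% and 24.2% when ranked anew, and of the 16 members 4 were lower and 4 higher, or 4 and 9 when ranked anew. Over the members the median difference between the 2 WT libraries was 4.18 points and between the 2 K20R libraries 3.18 points, against 3.64 to 6.59 points for the pairs of a WT and a K20R library.

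The fibrillar collagen genes were mixed. The promoter of Col5a1, encoding a collagen V chain that starts fibre assembly, stood at 94.5 and 93.4 in WT against 87.3 and 87.1 for K20R, a difference of -6.73 points between group means of 93.9 ± 0.76 and 87.2 ± 0.19 (SD, n = 2). Its partner chain Col5a2 differed in the opposite direction, with 26.3 and 40.2 in WT against 52.9 and 48.8 for K20R. Both K20R values of Col5a2 lay above both WT values, but the 2 WT libraries alone were 13.9 points apart. Col11a1, a chain of the cartilage collagen XI, had 84.8 and 86.2 in WT against 91.3 and 93.3 for K20R. The genotypes overlapped at Col1a1 and Col1a2, the chains of the main fibrillar collagen, and at the cartilage collagen gene Col2a1. Of these, Col1a2 became higher when ranked anew.

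Among 9 basement membrane genes with a promoter peak in every library, 2 were lower and 3 higher in K20R, or 2 and 5 when ranked anew. Lama1, the laminin α chain of the earliest basement membranes, stood at 95.6 and 96.1 in WT against 91.6 and 90.3 for K20R, and Nid2 (given above) had a difference of -2.64 points. Hspg2, encoding the proteoglycan perlecan, had 77.4 and 80.9 in WT against 83.8 and 87.2 for K20R. Col18a1, encoding the collagen XVIII from which endostatin is cut, had 63.1 and 73.1 in WT against 74.1 and 75.2 for K20R, where the gap between the genotypes (0.994 points) was far smaller than that between the WT libraries. A second Col18a1 promoter, chr10:77113335-77114274, was lower in both rankings, with 53.8 and 52.0 in WT against 22.9 and 32.7 for K20R. Lama5, the laminin α chain of later basement membranes, had 82.2 and 79.1 in WT against 82.9 and 82.3 for K20R, separated by only 0.136 points, and its sign turned with a wider promoter window. The promoter shared by Col4a1 and Col4a2, the chains of type IV collagen, stood at 73.9 and 79.7 in WT against 76.6 and 78.9 for K20R and overlapped, as did Lamb1 and Lamc1. This shared peak was higher when ranked anew and gave 2 of the 5 calls in that ranking.

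Among the other collagens Col6a2, a collagen VI chain, had 81.1 and 89.2 in WT against 94.6 and 91.2 for K20R, with a pileup 1.47 times the WT level relative to the median promoter of each library. The adjacent chain gene Col6a1 overlapped and its K20R libraries differed widely, with 33.3 and 49.6 in WT against 9.0 and 39.2 for K20R. Col12a1, encoding a collagen that decorates fibrils, also overlapped. The cartilage collagen gene Col9a1 had a peak at an alternative start site in WT only, at 35.6 and 36.9. Both K20R lists lacked peak numbers there (2 and 3 missing), so that a called peak may have been taken out.

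Of 7 glycoprotein and microfibril genes with a promoter peak in every library, 3 were lower and 2 higher, and the largest difference among all members was here. Tnc, encoding tenascin-C, a matrix protein of migrating and remodelling tissue, stood at 88.3 and 87.6 in WT against 63.3 and 62.3 for K20R. Its mean percentile was 88.0 ± 0.45 in WT and 62.8 ± 0.68 in K20R (SD, n = 2). The pileup at its summit, solved from its fold and p and set against the median promoter of each library, was 0.410 times the WT level. Fbn1, encoding the microfibril protein fibrillin-1, had 90.6 and 86.0 in WT against 74.7 and 80.9 for K20R. Sparc, encoding a collagen-binding secreted protein abundant in parietal endoderm, had 80.1 and 82.8 in WT against 73.4 and 77.5 for K20R. The fetal fibrillin gene Fbn2 differed upward, with 70.1 and 68.2 in WT against 79.7 and 71.2 for K20R, as did Fbln2, a fibulin gene, with 76.2 and 75.2 in WT against 76.3 and 79.3 for K20R. The difference at Fbn2 was 6.28 points and 2.02 without K20R replicate 1. Fbln1, another fibulin gene, overlapped at its strongest promoter, which was higher when ranked anew, but a second promoter, chr15:85206780-85208558, was lower in both rankings, with 68.5 and 66.8 in WT against 33.3 and 41.4 for K20R.

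Of 4 leucine-rich proteoglycan and fibroblast genes, 2 had a promoter peak in every library, and both were lower in K20R. Over all genes 32.2% were lower, or 23.0% when ranked anew, and 2 genes are too few to set against these shares. Thy1, encoding a surface glycoprotein of fibroblasts and other cells, had 88.6 and 94.3 in WT against 77.4 and 85.2 for K20R. Serpinf1, encoding the secreted factor PEDF, had weak promoter peaks, at 29.3 and 32.8 in WT against 10.1 and 10.1 for K20R. Its summit pileups were only 14 and 18 in WT against 13 and 12 for K20R, and its difference was -1.21 points when ranked anew. Dcn, encoding decorin, a proteoglycan that binds collagen fibrils, had a peak at 67.9 and 77.7 in WT, none in K20R replicate 1 and one at 24.7 in K20R replicate 2. Between the neighbours of the Dcn promoter 4 peak numbers were missing in K20R replicate 1. No Dcn or Lum region other than this promoter was found within 50 kb.

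Genes of fibroblast identity lay in both directions. Of 12 such markers 10 had a promoter peak in every library. Of these, 3 were lower (Prrx1, Tbx18 and Vim) and 2 higher (Pdgfra and Prrx2), or 1 and 2 when ranked anew. Over all genes 32.2% were lower and 15.7% higher, or 23.0% and 23.8% when ranked anew. Prrx1, a mesenchymal homeobox gene, stood at 39.3 and 25.0 in WT against 18.1 and 22.8 for K20R, and Pdgfra, encoding a receptor of mesenchyme and early mesoderm, at 82.7 and 82.1 in WT against 87.3 and 88.6 for K20R. Fap had no promoter peak and S100a4 had one in only 2 libraries, and the percentiles summed over the list, with 0 for an absent peak, were 658.1 and 658.6 in WT against 646.3 and 637.2 for K20R. Of 12 markers of parietal and visceral endoderm, which also secrete basement membrane, 9 had a promoter peak in every library and 6 were lower (Foxa2, Gata4, Gata6, Pth1r, Sox17 and Sox7) and none higher, or 5 and 0 when ranked anew. That is 66.7%, against 32.2% of all genes, and the genotypes overlapped at Dab2, Thbd and Cubn. Whether the listed genes mark only such endoderm in these bodies was not tested. Afp had no promoter peak, Hnf4a had one in both WT libraries and neither K20R library (30.6 and 32.8), and Amn had one in both K20R libraries and neither WT library (14.5 and 33.0). The summed percentiles of the list were 642.3 and 645.2 in WT against 473.1 and 545.0 for K20R. Of the 6, Gata4 and Sox7 lie in a stretch of chromosome 14 described below. The part of feeder cells or of endoderm content in the values of the matrix genes was not tested.

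Among the remodelling genes, Mmp2 and Mmp14 lay in long chromosome stretches in which neighbouring regions differed together, and are judged apart. In chr8:61927660-112046551, 1040 regions common to the 4 libraries had a median log2 pileup difference of 0.66, and 59.2% were higher in K20R. Mmp2, encoding the gelatinase that cuts type IV collagen, had a promoter percentile of 80.7 and 82.7 in WT against 90.2 and 90.7 for K20R, a log2 pileup difference of 0.74, whereas common regions between 50 kb and 1 Mb from it had a median of 0.57. In chr14:34634838-66176004, 368 common regions had a median of -0.77, and 81.5% were lower in K20R. Mmp14, encoding the membrane-bound protease that activates the Mmp2 product, had 66.4 and 43.3 in WT against 36.1 and 43.7 for K20R. The genotypes overlapped in percentile at Mmp14, with a log2 difference of -0.92 beside -0.81 in its surroundings. Both promoters thus differed in the direction of their surroundings. Promoter values were centred on the median promoter and those of the surroundings on the median common region, so their sizes are not strictly comparable. Without Mmp2 and Mmp14, 9 of 30 members were lower and 8 higher, against 32.2% and 14.1% of all genes outside the stretches.

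Of the remaining remodelling genes, Timp3, encoding an inhibitor of metalloproteinases bound to matrix, had 88.0 and 86.9 in WT against 84.8 and 86.5 for K20R, a gap of 0.327 points that closed when promoters were ranked anew. Timp2, encoding the inhibitor that also takes part in activation of the Mmp2 product, and Lox, encoding the lysyl oxidase that crosslinks collagen and elastin, overlapped, and were higher when ranked anew. Outside the chromosome stretches, the log2 pileup difference of the members ran from -1.29 to 0.56.

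**Figure D1:**
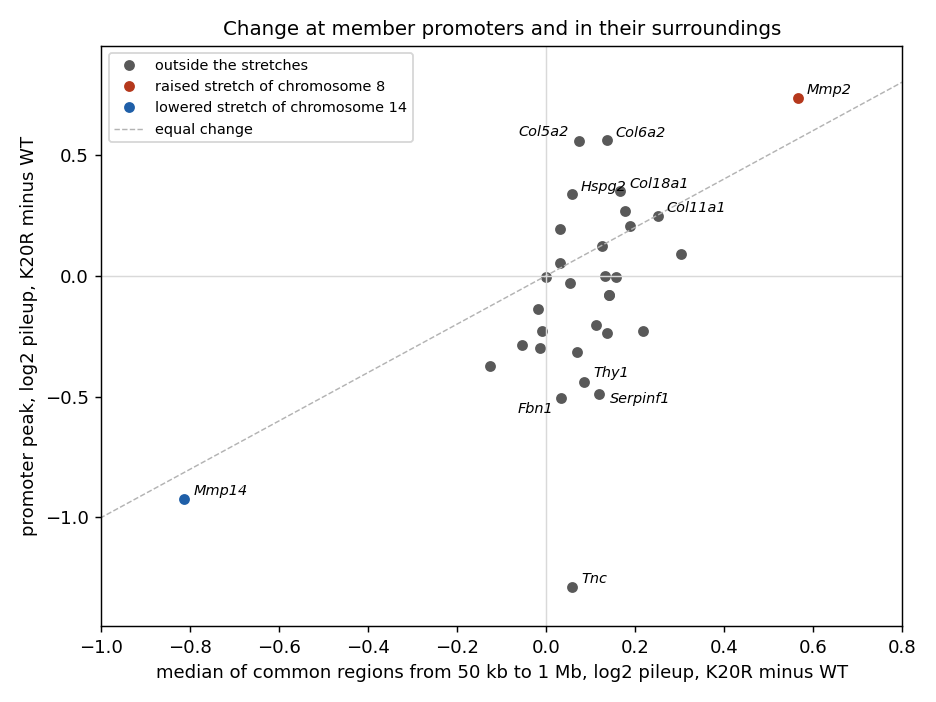
Difference in log2 summit pileup between K20R and WT at the promoter of each member with a peak in all 4 libraries (vertical) against the median difference of common regions between 50 kb and 1 Mb away (horizontal). Promoter values are centred on the median promoter of each library and the others on its median common region. The dashed line marks equal values on the axes. Mmp2 and Mmp14 lie near the line at 0.74 and -0.92, while Tnc at -1.29 has surroundings near 0.

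Other genes of the matrix pathway were taken from lists that did not include the members. Over all genes 32.2% were lower and 15.7% higher, or 23.0% and 23.8% when ranked anew. In these lists 28.6% to 33.3% were lower and 7.14% to 16.7% higher, with the smallest share of higher genes in collagen processing. Of 15 matrix receptor genes with a promoter peak in every library, 5 were lower and 2 higher, with the largest differences at Sdc2, encoding the heparan sulfate proteoglycan syndecan-2 (87.0 and 91.4 in WT against 58.5 and 65.5 for K20R), and Itgb5, encoding an integrin chain (69.6 and 62.2 in WT against 70.7 and 70.9 for K20R). Of 14 genes of collagen processing, 4 were lower and 1 higher, the lowest being Serpinh1, encoding the collagen chaperone HSP47 (78.6 and 85.2 in WT against 60.8 and 66.2 for K20R), and the higher one the lysyl oxidase gene Loxl3 (76.1 and 72.2 in WT against 81.9 and 83.5 for K20R). Of 18 other matrix and matricellular genes, 6 were lower and 3 higher, led by the laminin gene Lamb2 (82.5 and 77.6 in WT against 54.4 and 65.4 for K20R) and the thrombospondin gene Thbs1 (67.4 and 74.6 in WT against 80.0 and 80.2 for K20R). Ranked anew, these lists gave 4 and 4, 3 and 2, and 4 and 5, or 21.4% to 26.7% lower and 14.3% to 27.8% higher.

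The surroundings of the members held more regions restricted to WT than to K20R. Of 270 regions within 50 kb, 123 were common to all 4 libraries, 37 had a peak in both WT libraries and in neither K20R library (13.7%), 8 had the reverse pattern (2.96%) and 102 had another pattern. Over all 60117 regions within 50 kb of a protein-coding TSS, 8.75% were WT-restricted and 2.97% K20R-restricted. Without the chromosome stretches, 35 of 249 regions near members were WT-restricted and 8 K20R-restricted, against 8.76% and 2.95% near any TSS. Members have a larger share of regions outside promoters, and over such regions alone 16.5% of 212 were WT-restricted against 11.3% of all. The K20R lists were shorter, and of the 37 only 14 lay where neither K20R list lacked a peak number. Of the 102 regions of other patterns 62 were in 1 library only, 20 and 22 in the WT libraries and 6 and 14 in the K20R libraries. Peaks within 50 kb of members numbered 204 and 216 in WT and 157 and 178 in K20R.

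WT-restricted regions lay within 50 kb of 25 of the 40 members (62.5%), against 33.8% of all protein-coding genes, and members had a median of 5.5 regions against 6 over all genes. Col4a1 and Col4a2 count here for the same regions, and the comparison does not allow for the members' larger share of regions outside promoters. By position, 24 of the 37 were intronic, 11 intergenic and 2 at promoters. Their mean percentile over the WT libraries had a median of 26.7, below that of common regions outside promoters (49.6). The strongest was the intergenic region at chr2:125516121-125516908, 8792 bp upstream of Fbn1, at 59.7 and 63.0, and the Fbn1 promoter was also lower in K20R. The sequence of the region (given above) held 2 GATA matches. One in an intron of Fbn2 (54.5 and 62.8) and another in an intron of Lama1 at chr17:67728780-67729570 (54.1 and 61.9) followed. For these 3, peak numbers were missing in at least 1 K20R list.

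The next 3 in strength had no missing number in either K20R list, so that no called peak can have been taken out there. They were chr9:44089207-44089608, in an intron of Usp2 downstream of the Thy1 start (49.2 and 66.1), chr6:4464702-4466223, 40116 bp upstream of Col1a2 (45.0 and 59.4), and chr11:55383408-55383970, downstream of the Sparc start (37.2 and 61.1). Thy1 and Sparc also had lower promoters in K20R, while Col1a2 did not. The Col1a2 sequence (given above) held 2 GATA matches and no CpG. In each of these 3 regions WT replicate 2 was higher than WT replicate 1, as in 23 of the 37 regions.

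After these came regions near Col2a1 (54.7 and 43.1), Fbln1 (47.9 and 44.6), Serpinf1 (40.3 and 45.8) and Lamb1 (30.6 and 51.7), the last again with no missing number in either K20R list. Serpinf1 and Col6a3 each had 3 WT-restricted regions. Those of Col6a3 were all intronic, between 3541 and 8884 bp from its start, with no number missing in K20R and percentiles of 5.0 to 38.6 in WT. Col6a3 had no promoter peak and no common region, and its only other region was in K20R replicate 1 alone. The 2 WT-restricted promoter regions were that of Col9a1 (chr1:24193771-24196517) and a weak one of Slc7a7, 21452 bp upstream of Mmp14 in the chromosome 14 stretch (4.1 and 16.0).

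**Figure D2:**
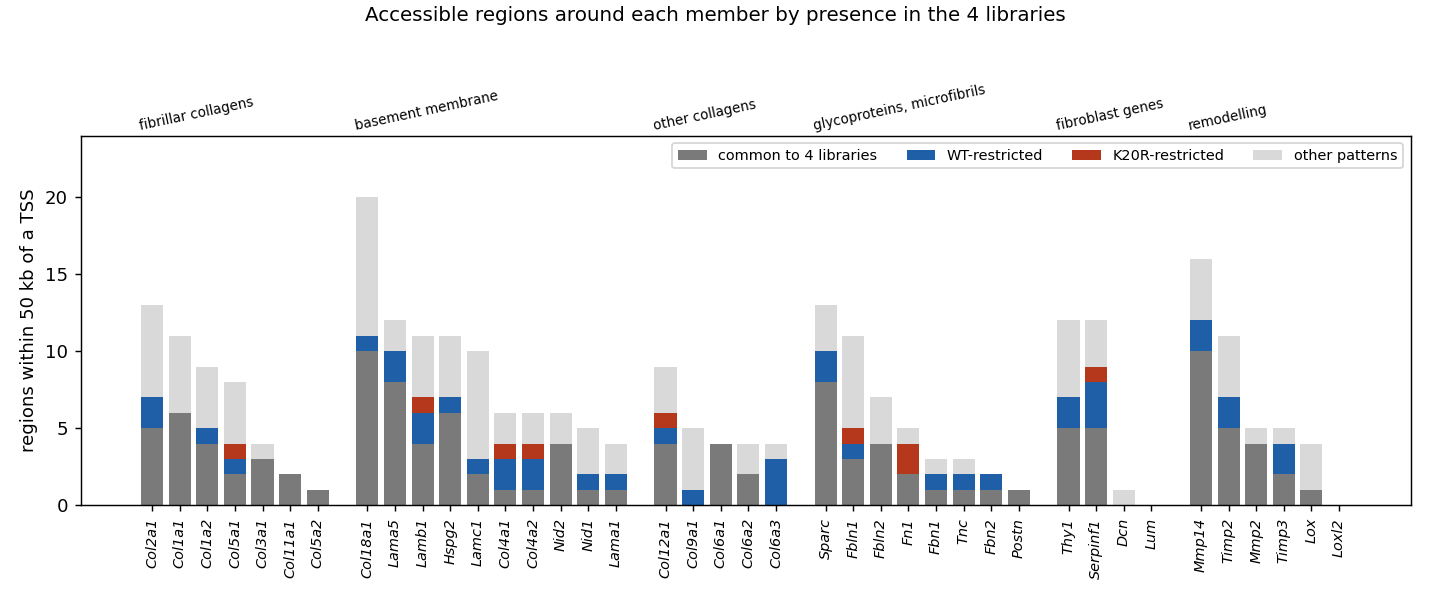
Number of accessible regions within 50 kb of each member (vertical), split by presence: in all 4 libraries, in both WT libraries only, in both K20R libraries only, or in another pattern. Col18a1 has the most regions (20), Col6a3 has 3 WT-restricted regions and no common one, and Fn1 is the only member with 2 K20R-restricted regions.

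The 8 K20R-restricted regions lay near 8 of the 40 members (20.0%), counting Col4a1 and Col4a2 for the same region. Over all protein-coding genes the share was 15.6%. The strongest, chr8:11278689-11280134 in an intron of Col4a1, stood at 59.4 and 47.2 in K20R. It lies outside the stretch of chromosome 8 given above. Fn1 had 2, in an exon (chr1:71609072-71610431, 39.0 and 37.2) and in an intron (chr1:71645274-71646354, 37.5 and 37.1). The others, near Serpinf1, Col5a1, Lamb1, Col12a1 and Fbln1, did not exceed 24.7 in any library. In none of the 8 were both WT lists free of missing numbers.

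Common regions around the members were more often lower than higher in K20R in both rankings. Of the 123, 54 were lower (43.9%) and 23 higher (18.7%), against 34.3% and 18.1% of 31758 common regions near any TSS. Without the chromosome stretches, 46 of 109 were lower and 21 higher, against 34.5% and 17.0% near any TSS. Ranked anew among common regions, 47 of the 123 were lower (38.2%) and 36 higher (29.3%), against 24.4% and 29.0% near any TSS, where the order of the directions was thus reversed. Outside promoters, 33 of 73 were lower (45.2%) and 10 higher (13.7%), against 35.9% and 19.6%. Ranked anew, 28 of the 73 were lower (38.4%) and 17 higher (23.3%), against 27.9% and 29.8%.

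The largest differences at common regions outside promoters were at type I and XVIII collagen. At chr10:77193509-77194429, 27225 bp upstream of Col18a1, percentiles were 66.3 and 68.5 in WT against 1.3 and 14.7 for K20R, with a GATA and a CCAAT match in the sequence given above. The next region towards the gene, chr10:77190888-77191946, differed upward, with 15.4 and 52.1 in WT against 77.4 and 66.4 for K20R, although its WT libraries differed by 36.7 points. Another Col18a1 region, intronic at chr10:77151959-77152742, was also higher, with 61.3 and 71.0 in WT against 80.1 and 81.9 for K20R. The locus thus held regions of both directions at its promoters and outside them.

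At chr11:94928624-94929292, 7218 bp upstream of Col1a1, percentiles were 78.5 and 71.5 in WT against 21.7 and 26.5 for K20R, whereas the Col1a1 promoter overlapped between the genotypes at 79.5 and 86.6 in WT against 78.4 and 83.8 for K20R. The next were chr11:118362980-118363514 upstream of Timp2 (73.2 and 75.3 in WT against 18.8 and 37.5 for K20R), chr10:76663611-76665581 upstream of Col6a2 (57.0 and 41.9, then 11.2 and 6.9) and chr3:114031673-114032583 in an intron of Col11a1 (65.6 and 67.2, then 36.4 and 25.8). The promoters of Timp2, Col6a2 and Col11a1 were not lower in K20R. At these loci the promoter and a region outside it thus did not differ in the same direction.

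The other regions called higher with the largest differences were at Lamb1, encoding the laminin β1 chain, and Hspg2. Upstream of Lamb1, chr12:31238906-31239471 had 21.6 and 1.4 in WT against 47.0 and 43.6 for K20R, and chr12:31225193-31226210 had 29.0 and 39.2 in WT against 56.9 and 65.5 for K20R. In an intron of Hspg2, chr4:137479584-137481074 had 57.4 and 60.1 in WT against 72.3 and 73.3 for K20R, the same direction as its promoter. An intronic region of Timp2, chr11:118316886-118317743, had 19.2 and 54.3 in WT against 50.5 and 59.2 for K20R, which overlapped although the difference of means was larger than at Hspg2, and it was higher when ranked anew.

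**Figure D3:**
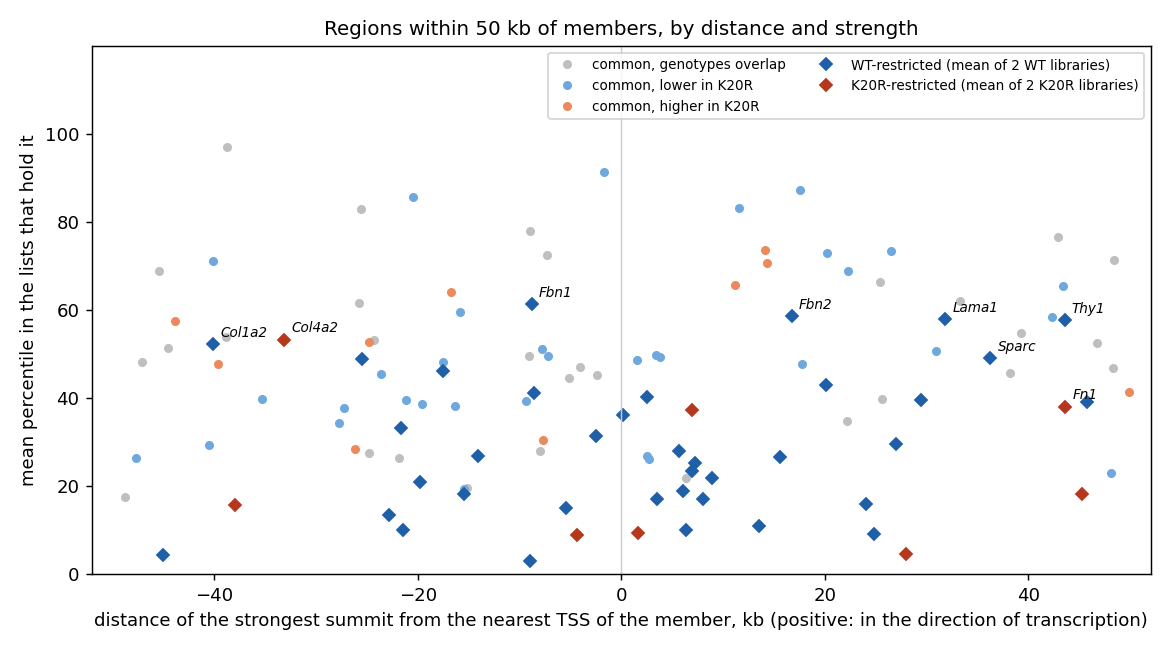
Mean percentile (vertical) of regions within 50 kb of a member that are either genotype-restricted or common and outside promoters, against distance from the nearest TSS of the member in kb (horizontal, positive in the direction of transcription). The 37 WT-restricted regions lie at all distances and reach 61.3 near Fbn1, and only the Col4a2 point of the 8 K20R-restricted regions lies above 40.

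Sequence motifs were counted in 200 bases at the strongest summit on both strands. The GATA motif was in 16 of 270 regions near members (5.93%) and in 7.78% of all regions. Of the 16, 4 were WT-restricted (near Fbn1, Col1a2, Timp3 and Mmp14), none K20R-restricted and 5 common. Of these 5, 3 were lower in K20R, where 43.9% of the 123 common regions near members were lower. The share among all common regions with the GATA motif was not computed. Over the series 14.5% of WT-restricted regions held it, and 4 of 37 (10.8%) near members. The motif of CTCF, by its consensus, was in 10 regions near members (3.70%) against 5.97% of all, and of the 7 common ones 4 were lower in K20R, near Col3a1, Col18a1, Serpinf1 and Lama5, against 25.9% of 2699 common regions with this motif. The T-box motif TCACACCT was in 4 regions near members (1.48%) against 1.25% of all. A match is a run of letters and not a measured binding site.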

How the data were processed

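ATAC-seq peak lists of 2 WT and 2 CTCF-K20R libraries were analysed, grouped by genotype and replicate number as the labels give them. Per the study's methods, adaptors were trimmed with Trim Galore, reads were aligned to mm10 with Bowtie2, low-quality, duplicate and blacklisted reads were removed, and the authors called peaks with MACS2. Each list holds its own library, so replicates were not pooled, and the 2 libraries of a genotype are stated to be independent experiments. The deposited score is 10 times the −log10 p. The deposited fold is the enrichment of the summit pileup over local background, and the −log10 p and −log10 q were computed by the authors with MACS2 at the summit. The differential test of the study needs reads, which were not used here.

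Peaks were ranked within their list by −log10 p. TSSs were those of protein-coding transcripts of the GENCODE vM21 basic annotation on the same build, and peaks of the 4 lists sharing at least 1 bp were merged into regions. A region counted as a promoter region when any part of it lay within 1 kb of a TSS. Other regions were placed in exons, in introns or between genes by their strongest summit. The pileup at each summit was solved from its fold and p, which gave values within 0.05 of a whole number in every list. As log2, promoter values were centred on the median promoter of each library. Values of regions were centred on its median common region. Chromosome stretches were found in windows of 40 common regions, as at least 3 windows with a median log2 difference beyond 0.3. Calculations used Python 3.11.15, numpy 2.4.6, pandas 2.3.3, scipy 1.17.1 and pysam 0.24.0, and were tested on simulated lists. All 40 members are accounted for. Library values are given for members called in both rankings, the 5 strongest, those with a promoter peak in some libraries, those in a chromosome stretch and others used for contrast, which were chosen after their values were seen. Of restricted regions the strongest (at most 10 per genotype) and those at promoters are named, of common regions outside promoters the 5 called with the largest differences in each direction, and of each other list the largest called difference in each direction. The members, lists and motifs were chosen with earlier results of these data known. Alternatives were another ranking, ranked column, q threshold, list length, promoter or distance window, TSS set, overlap, replicate block and each library left out. The recovered pileup and the restriction to places without missing peak numbers were chosen after seeing the data.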

Additional observations from a re-analysis of the deposited data

How the results depend on the processing

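Of the 18 called members over up to 14 alternatives each, 232 values kept direction and call, 12 kept direction only and 4 reversed, at Lama5 (-7.22 points with a 2 kb promoter window, -0.14 as log2 recovered pileup) and Timp3 (7.85 points by the fold column, 0.53 with the same number of peaks per list). With 1 library left out, the replicate block, or no chromosome stretches, a called member still counted keeps its call by construction. Those values are among the 232 and do not test the calls. Member promoters lower in K20R (9) were 4 by the fold column and 14 by recovered pileup, where 24.5% and 24.7% of all genes were lower. Promoters higher in K20R (9) were 15 with the same number of peaks per list (29.6% of all genes), as when ranked anew. WT-restricted regions (37) were 20 at a −log10 q of at least 5, 15 within 10 kb and 14 where no peak number was missing, against 7.60%, 6.35% and 3.07% of all regions. K20R-restricted regions (8) were 3 within 10 kb and 0 where no number was missing, against 2.16% and 0.855% of all regions. Common regions lower in K20R (54) were 28 of 89 at that q and 21 of 52 within 10 kb, against 25.8% and 33.7% near any TSS. Those higher (23) were 36 of 123 ranked anew and 37 of 117 with equal list length, against 29.0% and 32.9%. They were 37 of 123 by recovered pileup and 10 of 52 within 10 kb, against 36.5% and 17.0%. A smaller window or a stricter list leaves fewer regions by construction. With 1 library left out, which loosens the rule, the counts ran from 13 to 14 for lower promoters, 10 to 14 for higher promoters (14 without WT replicate 2), 42 to 60 for WT-restricted regions (59 without WT replicate 2, 60 without WT replicate 1), 13 to 23 for K20R-restricted regions (23 without K20R replicate 1), 64 to 72 for lower common regions and 35 to 44 for higher ones. These were of 32 or 33 promoters, 250 to 265 regions and 128 to 136 common regions. Over all genes, 42.3% to 50.0% were then lower and 25.0% to 31.0% higher. Near any TSS, 10.7% to 17.6% of regions were WT-restricted and 4.28% to 7.68% K20R-restricted. Of common regions there, 43.0% to 50.8% were lower and 25.3% to 34.4% higher. The difference of 10 of the 18 called members moved by over 1.5 times in 15 of 72 such values: without WT replicate 1 at Col5a2 (10.6 points), Lama5 (3.48), Col18a1 (1.54) and Col6a2 (3.66), without WT replicate 2 at Lama5 (0.443), Col18a1 (11.5) and Col6a2 (11.8), without K20R replicate 1 at Fbln2 (3.61), Nid2 (-1.36), Timp3 (-0.91), Sparc (-3.99), Thy1 (-6.25) and Fbn2 (2.02), and without K20R replicate 2 at Fbln2 (0.661) and Fbn2 (10.5). With the replicate number as a block, 12 of 32 promoters were lower and 11 higher, against 41.3% and 21.7% of all genes. Of 123 common regions 60 were lower and 32 higher, against 42.5% and 24.3% near any TSS. The labels do not say that a number marks a shared batch, and the deviations of same-numbered libraries correlated at 0.104 over 14480 promoters. The median difference of members ran from -1.10 to 1.87 points over the alternatives and changed sign. The cause of these changes was not tested further, and depth in reads was not known.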
